A study of Mus musculus with 8 samples.

Results

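The genes described here encode the machinery that shortens, uncaps and degrades messenger RNA: the CCR4-NOT and PAN2-PAN3 deadenylases, the decapping complex and the 5′ exonucleases, the RNA exosome, the factors of nonsense-mediated decay (NMD), and 3 proteins that bind AU-rich elements (AREs) in 3′ untranslated regions (UTRs). They are a list of 41 genes, given by name with earlier results of these data known, among 34976 gene symbols with usable values in the deposited table. All 41 were in the table, and 39 had a mean of at least 1 FPKM (fragments per transcript length and library size) over the 8 libraries and were tested. The decapping activator paralogue Dcp1b and the ARE-binding protein gene Zfp36l1 lay below that level.

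The study injected early 1-cell embryos of the outbred CF-1 mouse stock with a morpholino, an antisense oligomer that blocks a transcript without directing its cleavage, and collected them at the late 2-cell stage. One group of 4 libraries received a scrambled control morpholino and the other group of 4 a morpholino against Med13, whose product tethers a regulatory kinase module to the transcription coactivator Mediator. Each library came from a separate collection of 40 pooled embryos and was amplified before sequencing, so cells within an embryo and embryos within a pool were not resolved, and both groups share the injection and the amplification. Libraries are numbered 1 to 4 within a group only as names, and the labels name no partner for a library in the other group.

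In the cytoplasm, removal of the poly(A) tail usually comes first. The shortened RNA is then either uncapped and digested from the 5′ end by XRN1 or digested from the 3′ end by the exosome. In the mouse, the fertilised egg inherits a large store of oocyte RNA, and deadenylation-dependent decay clears much of it by the late 2-cell stage, when the embryo's own genome becomes active. The CCR4-NOT subunit CNOT6L and the adaptor BTG4 are known for their part in this clearance.

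The libraries held 31378977 to 48050262 fragments. The 10 most abundant genes took 20.8% of the summed FPKM in scrambled library 2 and 12.99% to 17.5% in the other libraries. All 6 markers of the late 2-cell embryo and all 8 of oocyte RNA had a mean of at least 1 FPKM, as had 0 of 9 markers of cumulus and granulosa cells, 0 of 3 of sperm, 0 of 1 of blood, 0 of 3 of immune cells and 2 of 3 of oviduct epithelium (Ovgp1 and Epcam). Of 4 sperm and 4 blood markers listed, 3 and 1 were measured. The globin genes Hbb-bs, Hbb-bt and Hba-a1 were not, because rows whose symbol holds a hyphen were left out. The summed level of the oocyte markers was 560 to 696 FPKM in the scrambled libraries and 779 to 1016 FPKM after the Med13 morpholino, and that of the 2-cell markers was 118 to 174 and 178 to 261 FPKM, so both sums separated the groups. Single markers did not all follow the sums. Of the oocyte markers, Gdf9, Bmp15, Zp3, Oosp1 and Nlrp5 rose, while Zp2, Zar1 and Dppa3, which makes up most of the sum (557 ± 58.2 and 536 ± 119 FPKM, SD, n = 4 each), did not pass the threshold defined below. Of the 2-cell markers, Zscan4c, Zscan4d, Zfp352 and Tdpoz3 rose, Tdpoz4 did not pass, and Dppa2 fell from 84.1 ± 15.7 to 44.6 ± 6.46 FPKM. Ovgp1, an oviduct secretion gene, fell from 3.49 ± 0.68 to 2.18 ± 0.19 FPKM with no overlap (limma adjusted p = 0.0440). It passed in only 1 of 8 fits with 1 library left out (limma adjusted p up to 0.125). Most of its level came from a noncoding row of 525 bases (2.43 and 1.59 FPKM), and its highest coding row averaged 0.69 and 0.41 FPKM. Epcam did not pass. The part of these markers in the differences below was not tested. The Med13 transcript itself was at 41.3 ± 4.31 FPKM (SD, n = 4) in the scrambled group and 42.2 ± 2.14 FPKM (n = 4) in the other group (log2 difference 0.03, exact two-sided permutation test over 70 assignments, p = 0.629), and because a morpholino need not lower its target RNA, this level does not check the labels.

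After the Med13 morpholino, 5 of the 39 tested decay genes passed the threshold, and 33 of the 39 differed by less than 0.5 on the log2 scale. Cnot6l, a catalytic deadenylase subunit, and Patl1, an activator of decapping, rose. The NMD factor gene Upf3b and the ARE-binding protein genes Zfp36 and Zfp36l2 fell. Differences are on the log2(FPKM + 1) scale with transcript rows of a gene summed, and the threshold is an adjusted p below 0.05 (limma, Benjamini-Hochberg over all 11755 genes tested). In that fit 17.1% of all genes passed, 9.29% higher and 7.81% lower, so 5 of 39 decay genes (12.8%), with 2 higher and 3 lower, is near the background and is not a result about the list.

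The members' median log2 difference was -0.03, against -0.06 over all genes tested, with 17 values above 0 and 22 below. Values above 0 made up 43.6% of the members and 44.5% of all genes. Differences under 0.5 in size made up 84.6% of the members and 77.2% of all genes. The groups did not overlap for 6 members (15.4%), which were Cnot6, Cnot6l, Patl1, Xrn1, Upf3b and Zfp36l2, against 21.6% of all genes. The number of members past the threshold was 3 without scrambled library 3, Med13 morpholino library 1 or Med13 morpholino library 3, and 1 without Med13 morpholino library 2, each left out in turn. In the same fits and order, 9.38%, 11.3%, 10.6% and 8.29% of all genes passed, against 17.1% with all 8 libraries. Without the filter on low values, which brings all 34976 symbols into the adjustment, 1 member passed, Patl1, with 2.89% of all genes. In such bulk libraries, fewer cells with a transcript and less of it per cell cannot be told apart.

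**Figure D1:**
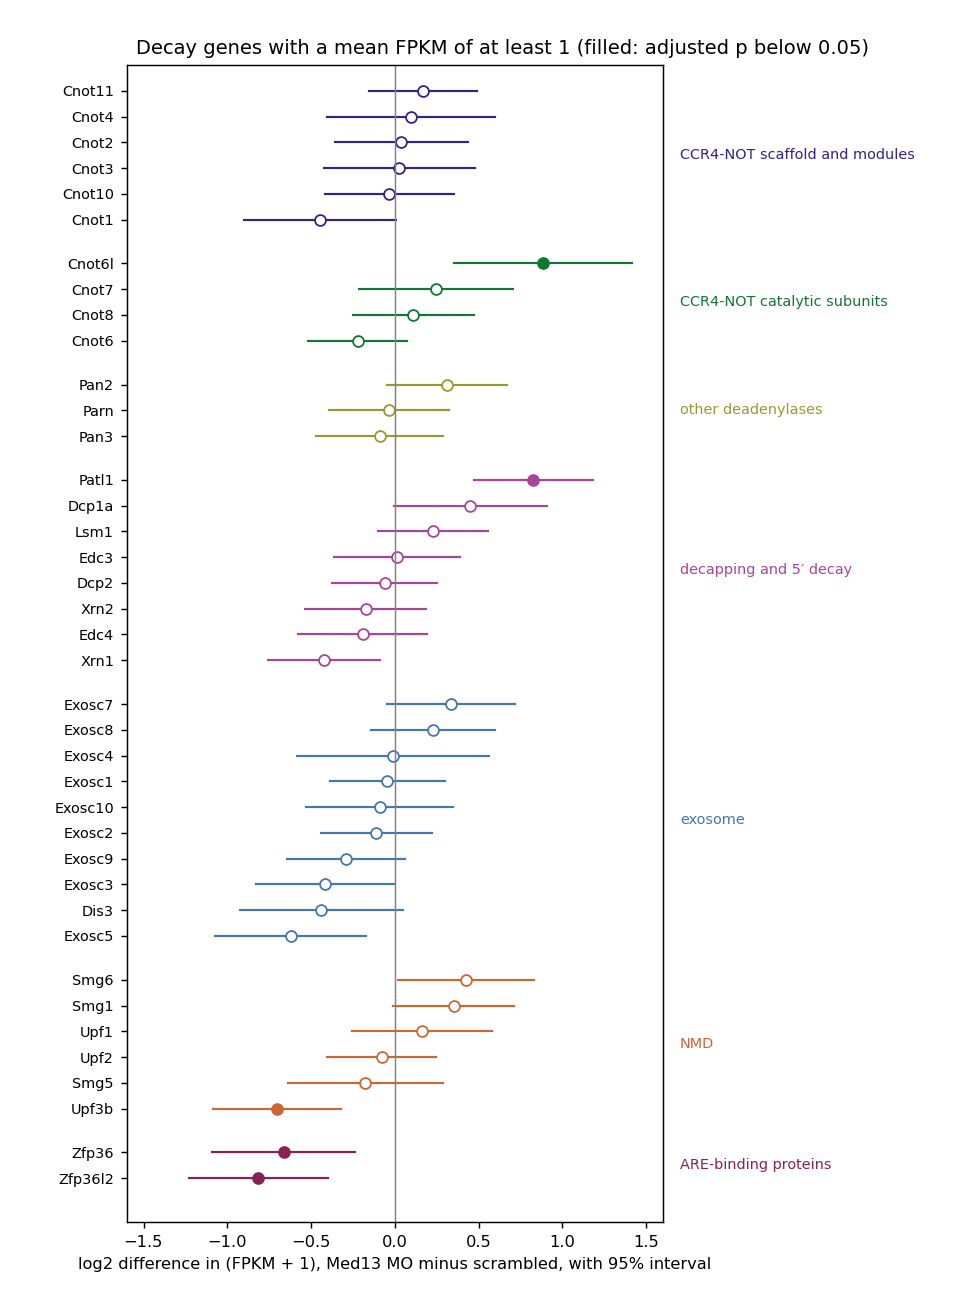
Log2 difference in FPKM + 1 (x axis, Med13 morpholino minus scrambled, with the 95% interval) of the 39 tested decay genes (y axis), coloured by role; filled points passed the threshold. The 5 filled points are Cnot6l and Patl1 to the right of 0 and Upf3b, Zfp36 and Zfp36l2 to the left, and 33 of the 39 points lie within 0.5 of 0.

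The scaffold and the accessory modules of CCR4-NOT were tested through 6 genes, and 0 passed the threshold (limma, 0 also at an unadjusted p below 0.05, and 1, Cnot1, with library weights). Over all genes tested, 17.1% passed, 32.4% had an unadjusted limma p below 0.05 and 36.9% passed with library weights. Cnot1, on chromosome 8, encodes the scaffold on which the other subunits assemble. Its summed FPKM was 36.4, 27.5, 48.2 and 54.9 in scrambled libraries 1 to 4 and 27.8, 25.6, 31.1 and 33.7 after the Med13 morpholino. Scrambled libraries 3 and 4 were the highest of the 8 and scrambled library 2 lay among the Med13 morpholino libraries, so the groups overlapped. The log2 difference of -0.44 ± 0.21 (SE) did not pass (adjusted p = 0.163), but it did without scrambled library 2 (-0.62, adjusted p = 0.0326). The log2 differences of the other 5 genes lay between -0.03 and 0.17: Cnot2 and Cnot3 (0.04 and 0.03), which together form the NOT module, Cnot4 (0.10), a ubiquitin ligase, and Cnot10 and Cnot11 (-0.03 and 0.17), which bind the N-terminal part of CNOT1.

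Among the 4 catalytic subunits, Cnot6l rose and the values of Cnot6, Cnot7 and Cnot8 did not pass. Cnot6 and Cnot6l encode alternative exonucleases of one family and Cnot7 and Cnot8 those of another. Cnot6l, on the minus strand of chromosome 5 (GRCm38, 96070333 to 96164171), was at 30.9, 37.6, 23.0 and 24.1 FPKM in scrambled libraries 1 to 4 and at 87.6, 45.0, 39.6 and 51.2 FPKM in Med13 morpholino libraries 1 to 4. Every Med13 morpholino value lay above every scrambled value, and library 1 stood far above the other three. The group means were 28.9 ± 6.76 and 55.8 ± 21.7 FPKM (SD, n = 4 each), a ratio of 1.93, and the log2 difference was 0.88 ± 0.24 (SE, 95% interval 0.36 to 1.41, limma adjusted p = 0.0276).

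The Cnot6l call did not hold in every fit with 1 library left out. It was lost without scrambled library 3 (adjusted p = 0.0787), scrambled library 4 (0.0694), Med13 morpholino library 1 (0.0518) or Med13 morpholino library 2 (0.0512), while the log2 difference stayed between 0.65 and 1.02 with any 1 library left out. In the fits that lost the call, 8.29% to 12.8% of all genes passed, against 17.1% with all 8 libraries. The call was also lost without the filter on low values (adjusted p = 0.107) and with the most abundant row alone (0.0533). Of its transcript rows, 4 (Cnot6l-201, Cnot6l-202, Cnot6l-203 and Cnot6l-208) passed in the fit over single rows, with log2 differences of 0.80 to 0.91. The longest coding row, Cnot6l-210 with 8564 bases, had 0.76 and an adjusted p of 0.0708. These rows share exons, so they are not independent measurements.

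Cnot6 was at 8.61, 8.66, 7.74 and 8.33 FPKM in the scrambled libraries and at 6.88, 7.72, 6.70 and 6.74 FPKM after the Med13 morpholino. The groups did not overlap, by a margin of less than 0.1 FPKM, and the log2 difference of -0.22 ± 0.14 had an adjusted p of 0.281. Cnot7 averaged 30.4 and 35.8 FPKM (log2 difference 0.25, adjusted p = 0.448) and Cnot8 averaged 31.4 and 34.1 FPKM (0.11, adjusted p = 0.679). One noncoding row each of Cnot6 (830 bases, -0.49) and Cnot8 (231 bases, -0.80) fell in the row-level fit, while the coding rows of those genes did not pass.

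The difference within paralogue pairs was compared directly, for 3 pairs chosen after the values were seen. Log2(FPKM + 1) of Cnot6l minus that of Cnot6 was 1.73, 2.00, 1.46 and 1.43 in scrambled libraries 1 to 4 and 3.49, 2.40, 2.40 and 2.75 in Med13 morpholino libraries 1 to 4. All 4 Med13 morpholino values were higher, by 1.11 on average (exact two-sided permutation test, p = 0.0286, the smallest 70 assignments can give, 0.0857 adjusted over 3 pairs). Cnot6l and Cnot6 each separated the groups, in opposite directions, so their difference had to separate them too. This p was therefore fixed before the test and adds no support. A single pair at the smallest p cannot fall below that adjusted value, so missing 0.05 says nothing about this pair. Cnot7 minus Cnot8 differed by 0.13 (exact permutation p = 0.571, adjusted 0.6) and Zfp36 minus Zfp36l2 by 0.15 (exact permutation p = 0.6, adjusted 0.6), with overlapping groups in both.

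**Figure D2:**
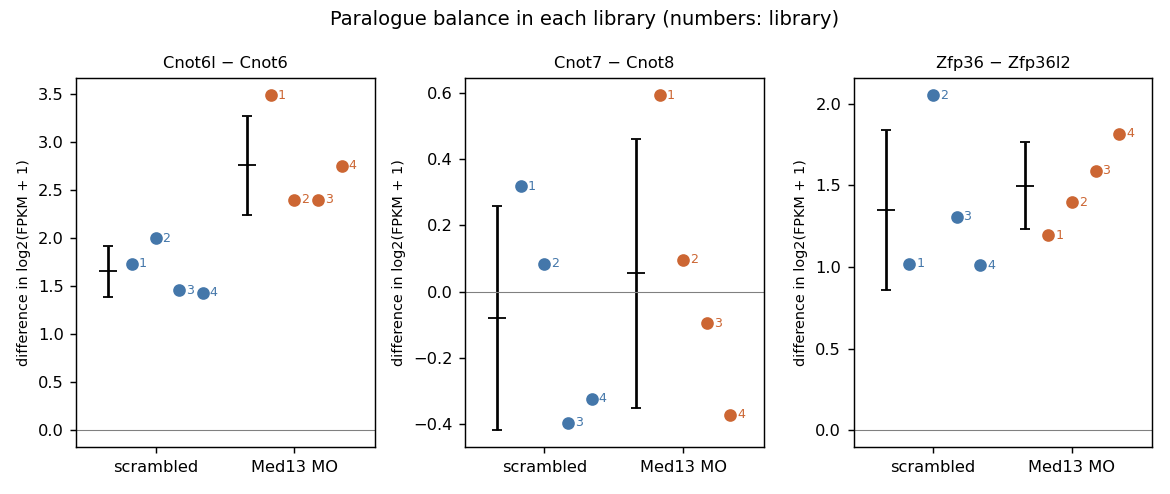
Difference in log2(FPKM + 1) within 3 paralogue pairs (y axis) in each of 4 scrambled and 4 Med13 morpholino libraries (x axis; coloured points, numbered by library; black bars, mean ± SD). For Cnot6l minus Cnot6 the scrambled values lie at 1.43 to 2.00 and the Med13 morpholino values at 2.40 to 3.49; the groups overlap in the other pairs.

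Levels were also read on 1 coding transcript row per gene. The FPKM of a row may depend on how a gene's fragments were divided over its rows. In the scrambled group Cnot6l-210 was at 6.14 ± 2.40 FPKM (SD, n = 4) and Cnot6-203 at 1.85 ± 0.30 FPKM, and after the Med13 morpholino these rows were at 11.2 ± 4.84 and 1.81 ± 0.22 FPKM. Cnot8-201 was at 13.2 ± 2.26 and 15.5 ± 2.38 FPKM, and Cnot7-201 at 4.78 ± 1.58 and 6.23 ± 1.71 FPKM. Among these rows Cnot8-201 and, after the Med13 morpholino, Cnot6l-210 were the highest of the catalytic subunits, and their SDs overlapped there. This is an order of rows and not of genes. Cnot7 has 11 rows and Cnot8 has 4, and their summed FPKM averaged 30.4 and 31.4 in the scrambled group. The scaffold row Cnot1-202 was at 22.0 ± 6.36 and 15.7 ± 2.02 FPKM.

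Of the 3 other deadenylase genes, 0 passed the threshold (limma, 0 also at an unadjusted p below 0.05 and 0 with library weights). Over all genes tested these shares were 17.1%, 32.4% and 36.9%. Pan2 and Pan3 encode the nuclease and the adaptor of a complex that trims long tails. Pan2 was at 2.48, 1.88, 2.91 and 2.60 FPKM in the scrambled libraries and at 4.00, 2.71, 2.67 and 3.91 FPKM after the Med13 morpholino, with overlapping groups (0.31 ± 0.17, adjusted p = 0.215). Pan3 was at 42.3, 32.5, 42.7 and 44.7 FPKM and at 43.8, 35.4, 30.2 and 43.2 FPKM, and the groups covered nearly the same range (-0.09 ± 0.17, adjusted p = 0.749). A retained-intron row of Pan3 (Pan3-220) was at 3.81 to 4.11 FPKM in the scrambled libraries and 2.03 to 2.71 FPKM after the Med13 morpholino, and fell by 0.57 on the log2 scale (row-level adjusted p = 0.0128). Parn, a nuclear and cytoplasmic poly(A) ribonuclease, had a log2 difference of -0.03.

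Patl1, which links the deadenylated RNA to the decapping enzyme, rose. Its 1 transcript row (4216 bases, plus strand of chromosome 19, GRCm38, 11912399 to 11945091) was at 4.20, 2.62, 4.14 and 3.86 FPKM in scrambled libraries 1 to 4 and at 8.18, 6.26, 6.89 and 7.84 FPKM in Med13 morpholino libraries 1 to 4. The lowest Med13 morpholino value was above the highest scrambled value, and scrambled library 2 was the lowest of all. The means were 3.71 ± 0.74 and 7.29 ± 0.88 FPKM (SD, n = 4 each), a ratio of 1.97, from 475 to 1512 fragments per library. The log2 difference was 0.83 ± 0.16 (SE, 95% interval 0.47 to 1.18, limma adjusted p = 0.00629). Among the 5 members past the threshold, only Patl1 passed in all 16 alternative fits, with adjusted p-values up to 0.0250 and log2 differences of 0.65 to 0.97.

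The other 7 tested genes of decapping and 5′ decay did not pass. Xrn1, the cytoplasmic 5′ exonuclease, was at 6.71, 6.51, 6.88 and 7.89 FPKM in the scrambled libraries and at 4.98, 5.20, 5.96 and 3.87 FPKM after the Med13 morpholino. All 4 Med13 morpholino values lay below all scrambled values, and the log2 difference of -0.42 ± 0.16 had an adjusted p of 0.0787. Dcp2, the decapping enzyme itself, was at 13.7, 12.3, 13.3 and 13.6 FPKM and at 14.6, 13.004, 11.2 and 11.9 FPKM, with overlapping groups (-0.06 ± 0.15, adjusted p = 0.797). Its cofactor gene Dcp1a averaged 6.12 and 8.91 FPKM (0.45, adjusted p = 0.160), with libraries 1 and 4 of the Med13 morpholino group both at 11.3 FPKM and the other 2 within the scrambled range. Lsm1, which binds shortened tails as part of a ring with other LSM proteins, had a log2 difference of 0.23, the nuclear exonuclease gene Xrn2 one of -0.18, and the decapping enhancers Edc3 and Edc4 had 0.01 and -0.19. Edc3 shares 22.1% of its exonic bases with Clk3 on the other strand, so its value may hold reads of that gene. Dcp1b was at 0.132 and 0.191 FPKM on average.

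No gene of the 10 for the exosome, the ring-shaped complex that degrades RNA from the 3′ end, passed the threshold. Over all genes 17.1% did. An unadjusted p below 0.05 in the limma fit was held by 2 (20%), against 32.4% of all genes. With library weights 3 passed, as did 36.9% of all genes, so neither count is a result about the exosome. Of the 10 log2 differences, 8 were below 0, with a median of -0.10. Over all genes, 6522 of 11755 were below 0, with a median of -0.06. The signs of the exosome genes were not tested as a set. The values with the smallest p belonged to Exosc5, a subunit of the ring, at 6.67, 11.8, 11.5 and 11.8 FPKM in scrambled libraries 1 to 4 and 4.45, 6.61, 6.79 and 7.69 FPKM after the Med13 morpholino. Scrambled library 1 lay within the Med13 morpholino range, far from the other 3 scrambled libraries. The log2 difference was -0.62 ± 0.21 (adjusted p = 0.0580). It passed without scrambled library 1 (-0.80, adjusted p = 0.0197) or Med13 morpholino library 4 (-0.71, adjusted p = 0.0456).

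Exosc10, a nuclear exonuclease of the complex, was at 29.8, 24.2, 33.1 and 34.4 FPKM and at 19.4, 27.6, 32.4 and 36.4 FPKM. The Med13 morpholino libraries held both the lowest and the highest value (-0.09 ± 0.20, adjusted p = 0.785). Dis3, the other catalytic subunit, averaged 14.9 ± 4.00 and 10.7 ± 2.85 FPKM (-0.44, adjusted p = 0.195), and Exosc3, a cap subunit, 31.2 ± 5.30 and 23.2 ± 5.28 FPKM (-0.42, adjusted p = 0.147). The remaining 6 genes ran from Exosc9 (-0.29) through Exosc2 (-0.11), Exosc1 (-0.04), Exosc4 (-0.01) and Exosc8 (0.23) to Exosc7 (0.34). Exosc4 shares 19.8% of its exonic bases with Oplah on the other strand. By single coding row in the scrambled group, Exosc3 (17.8 ± 3.70 FPKM), Exosc2 (17.3 ± 0.11 FPKM) and Dis3 (14.9 ± 4.00 FPKM) were the highest of the 10, in that order. Neighbours in that order did not differ beyond their SDs. It is an order of rows and not of genes. Exosc10 has 8 rows, with 5.91 FPKM in its coding row and a summed mean of 30.4 FPKM, and Dis3 has 1 row.

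NMD removes transcripts that stop translation early, and 1 of its 6 genes passed (16.7%). Over all genes 17.1% passed, so this count is not a result about NMD. Upf3b, which joins the exon junction complex to UPF2, lies on the minus strand of the X chromosome (GRCm38, 37091678 to 37110322). It was at 13.003, 9.58, 9.93 and 7.47 FPKM in scrambled libraries 1 to 4 and at 6.25, 4.81, 5.25 and 6.39 FPKM in Med13 morpholino libraries 1 to 4. All Med13 morpholino values were below the lowest scrambled value, that of library 4. The means were 9.997 ± 2.28 and 5.68 ± 0.77 FPKM (SD, n = 4 each), 1.76 times lower after the Med13 morpholino, and the log2 difference was -0.70 ± 0.18 (SE, 95% interval -1.09 to -0.32, limma adjusted p = 0.0185). The call was lost without Med13 morpholino library 2 (adjusted p = 0.0689) or 3 (adjusted p = 0.0553), and without the filter on low values (adjusted p = 0.0584). Both coding rows tested, Upf3b-201 (-0.64) and Upf3b-202 (-0.61), fell.

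The other NMD genes stood on both sides of 0. Smg6, the endonuclease of the pathway, averaged 5.69 ± 1.31 and 7.92 ± 1.47 FPKM (0.42, adjusted p = 0.136). Smg1, the kinase that phosphorylates UPF1, averaged 10.2 ± 1.66 and 13.3 ± 1.81 FPKM (0.35, adjusted p = 0.165). Smg5, an adaptor for phosphorylated UPF1, was at 12.7, 10.1, 16.6 and 18.6 FPKM and at 8.83, 13.3, 13.2 and 15.2 FPKM, with overlapping groups (-0.18 ± 0.21, adjusted p = 0.606). Upf1, the helicase at the centre of the pathway, and Upf2, its activator, had log2 differences of 0.16 and -0.08.

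Zfp36 (tristetraprolin) and Zfp36l2 bind AREs and recruit CCR4-NOT. Zfp36 fell, and so did Zfp36l2, which passed the level filter only through the scrambled group. Zfp36 was at 7.75, 8.42, 7.77 and 6.36 FPKM in scrambled libraries 1 to 4 and at 3.21, 3.49, 4.82 and 6.70 FPKM in Med13 morpholino libraries 1 to 4. The groups overlapped through 1 library on each side, since Med13 morpholino library 4 lay above scrambled library 4. The means were 7.57 ± 0.87 and 4.55 ± 1.59 FPKM (SD, n = 4 each), 1.66 times lower, and the log2 difference was -0.66 ± 0.20 (SE, limma adjusted p = 0.0370). The call was lost without scrambled library 1, 2 or 3 (adjusted p = 0.0766, 0.0590 and 0.0832) and without Med13 morpholino library 1, 2 or 3 (0.0991, 0.118 and 0.0675), and without the filter on low values (0.111).

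Zfp36l2 was at 3.32, 1.27, 2.54 and 2.65 FPKM in the scrambled libraries and at 0.840, 0.704, 0.934 and 1.18 FPKM after the Med13 morpholino. All Med13 morpholino values were below all scrambled values, of which library 2 was the lowest and close to them. The means of 2.44 ± 0.86 and 0.915 ± 0.202 FPKM (SD, n = 4 each) rest on 100 to 441 fragments per library. The log2 difference was -0.81 ± 0.19 (SE, limma adjusted p = 0.0141), or -1.27 with 0.1 in place of 1 added to the FPKM. The call was lost without Med13 morpholino library 2 (adjusted p = 0.0509) and without the filter on low values (adjusted p = 0.0605), so the 2 calls among ARE-binding genes are not counted as support for a pattern. Zfp36l1, the untested gene of the family, was at 0.616, 1.12, 0.248 and 0.699 FPKM and at 0.177, 0.427, 0.291 and 0.259 FPKM, and shares 55.9% of its exonic bases with the gene Gm26669 on the other strand.

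**Figure D3:**
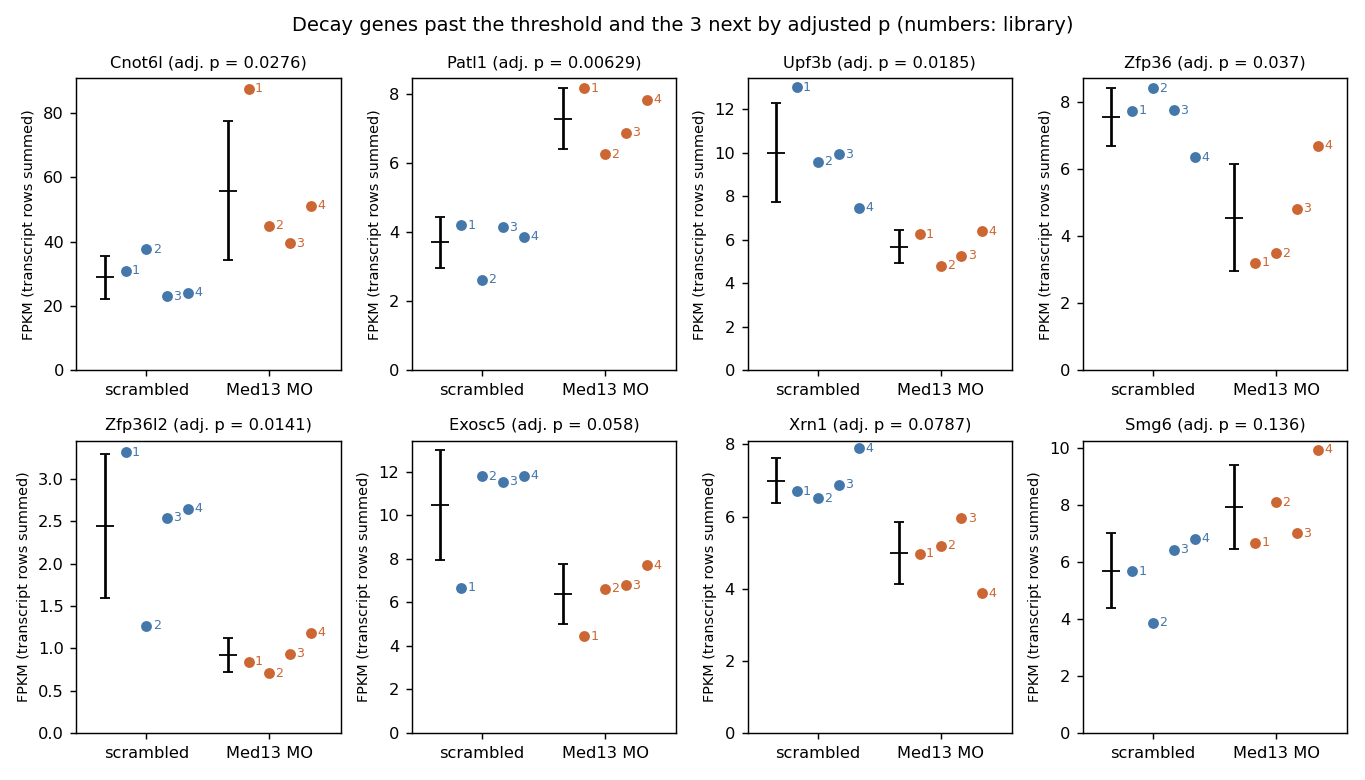
Summed FPKM (y axis) in each of 4 scrambled and 4 Med13 morpholino libraries (x axis; coloured points, numbered by library; black bars, mean ± SD) for the 5 decay genes past the threshold and the 3 with the next smallest adjusted p. Groups do not overlap for Cnot6l, Patl1, Upf3b, Zfp36l2 and Xrn1, and do for Zfp36, Exosc5 and Smg6.

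In the row-level fit, 12 of the 110 tested transcript rows of the members passed (10.9%, 5 higher and 7 lower, in 8 genes), against 15.7% of all 21052 rows tested. The rows were those of the 5 genes past the threshold and the single noncoding rows of Cnot6, Cnot8 and Pan3 described above.

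The 3′ UTRs of the members were read from GENCODE M21 (GRCm38) for the ARE nonamer, the letters TTATTTATT on the RNA strand, after the values had been seen. It occurred in 4 of the 39 members, Zfp36, Zfp36l2, Cnot6l and Edc3, and in 7.22% of 9237 expressed genes with a 3′ UTR. The 4 sites are printed because the nonamer is the sequence these proteins bind, each as 30 bases with the nonamer in capitals.
Zfp36 (chr7:28376950-28376979, minus strand): gene   motif      
Zfp36  ARE nonamer    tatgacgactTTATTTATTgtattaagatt
Name: sequence, dtype: object
Zfp36l2 (chr17:84184913-84184942, minus strand): gene     motif      
Zfp36l2  ARE nonamer    actatttaacTTATTTATTatcttgtgaaa
Name: sequence, dtype: object
Cnot6l (chr5:96071160-96071189, minus strand): gene    motif      
Cnot6l  ARE nonamer    agggaagagaTTATTTATTtttgtttcctg
Name: sequence, dtype: object
Edc3 (chr9:57750553-57750582, plus strand): gene  motif      
Edc3  ARE nonamer    agcttctagcTTATTTATTggcttgccttt
Name: sequence, dtype: object

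The log2 differences of these 4 genes were -0.66 for Zfp36, -0.81 for Zfp36l2, 0.88 for Cnot6l and 0.01 for Edc3, on both sides of 0. UTR length differs between them, at 774 bases for Zfp36, 1822 for Zfp36l2, 4004 for Edc3 and 6847 for Cnot6l, against a median of 958 bases over the members and 929 over all genes read. Within the last 300 bases of the UTR, Zfp36 alone of 32 members with so long a UTR held the nonamer, as did 2.21% of 7298 genes.

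The Pumilio motif, TGTANATA on the RNA strand, occurred in 13 of 39 members and in 24.2% of all genes read, and in the last 300 bases in 5 of 32 members and 10.8% of genes. It was read because Pumilio proteins recruit CCR4-NOT. Both genes that rose held it once, and these sites are shown with the motif in capitals.
Patl1 (chr19:11944930-11944959, plus strand): gene   motif  
Patl1  Pumilio    ttatagggtatTGTAAATAaaacaaattgt
Name: sequence, dtype: object
Cnot6l (chr5:96075175-96075204, minus strand): gene    motif  
Cnot6l  Pumilio    gcaaagtttgaTGTAAATAaaatattcttt
Name: sequence, dtype: object

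Cnot1, Cnot7, Cnot8, Dcp1a and Dcp2, which did not pass the threshold, also held the motif. A match is a run of letters and not a measured binding site.

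Promoters, 250 bases before to 50 after the RefSeq start (GRCm38.p6), were found for 34 members and for 4 of the 5 past the threshold, all but Zfp36l2. Cnot6l has 3 listed starts and is not printed. The 3 with 1 start are shown so that the genes that moved in opposite directions can be compared, with matches to the searched motifs on either strand in capitals.
Patl1 (chr19:11912149-11912448, plus strand): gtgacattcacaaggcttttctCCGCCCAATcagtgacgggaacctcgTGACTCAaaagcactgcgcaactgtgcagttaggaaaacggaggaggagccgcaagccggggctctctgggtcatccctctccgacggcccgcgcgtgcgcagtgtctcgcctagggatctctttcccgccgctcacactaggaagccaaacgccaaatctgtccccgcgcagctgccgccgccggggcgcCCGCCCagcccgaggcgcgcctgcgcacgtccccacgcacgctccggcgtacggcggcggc
Upf3b (chrX:37110273-37110572, minus strand): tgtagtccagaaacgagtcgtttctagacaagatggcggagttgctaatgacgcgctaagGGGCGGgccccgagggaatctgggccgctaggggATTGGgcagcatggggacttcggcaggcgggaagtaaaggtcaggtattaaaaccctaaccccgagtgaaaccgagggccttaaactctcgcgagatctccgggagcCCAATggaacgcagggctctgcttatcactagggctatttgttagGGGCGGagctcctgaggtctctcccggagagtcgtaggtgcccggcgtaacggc
Zfp36 (chr7:28379179-28379478, minus strand): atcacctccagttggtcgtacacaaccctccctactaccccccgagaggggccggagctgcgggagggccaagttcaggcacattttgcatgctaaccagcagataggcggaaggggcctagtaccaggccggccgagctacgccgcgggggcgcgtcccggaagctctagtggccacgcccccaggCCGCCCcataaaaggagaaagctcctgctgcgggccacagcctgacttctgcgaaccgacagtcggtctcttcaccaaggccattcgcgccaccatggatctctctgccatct

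The GC box GGGCGG occurred in 35.7% of 32851 promoters, CCAAT in 37.4%, TATAAA in 13.6%, the AP-1 motif TGANTCA in 7.81%, the E-box CACGTG in 7.15% and the cyclic AMP response element TGACGTCA in 1.79%. Patl1 held 2 GC boxes, 1 CCAAT box that overlaps one of them and 1 AP-1 motif. Upf3b held 2 GC boxes and 2 CCAAT boxes, and Zfp36 held 1 GC box. The GC content was 67.3%, 58.7% and 63.7%, against a median of 52.7% over all promoters. GC boxes were thus present in the printed promoters of Patl1, which rose, and of Upf3b and Zfp36, which fell. They also occurred at each of the 3 Cnot6l starts. Zfp36l2 had no promoter to read.

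Library by library, scrambled library 2 held the lowest scrambled value for 25 of the 39 members (64.1%) and for 52.8% of all genes tested. Med13 morpholino library 4 held the highest value of its group for 23 members (59.0%) and for 44.4% of all genes. Med13 morpholino library 1 held the lowest for 16 members (41.03%) and for 41.9% of all genes. Patl1, Cnot1 and Smg6 were lowest of all 8 or of their group in scrambled library 2, whereas Cnot6l, Zfp36, Exosc3 and Exosc5 were not. Without scrambled library 2, 5 members passed, with Cnot1 in and Zfp36 out (adjusted p = 0.0590).

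**Figure D4:**
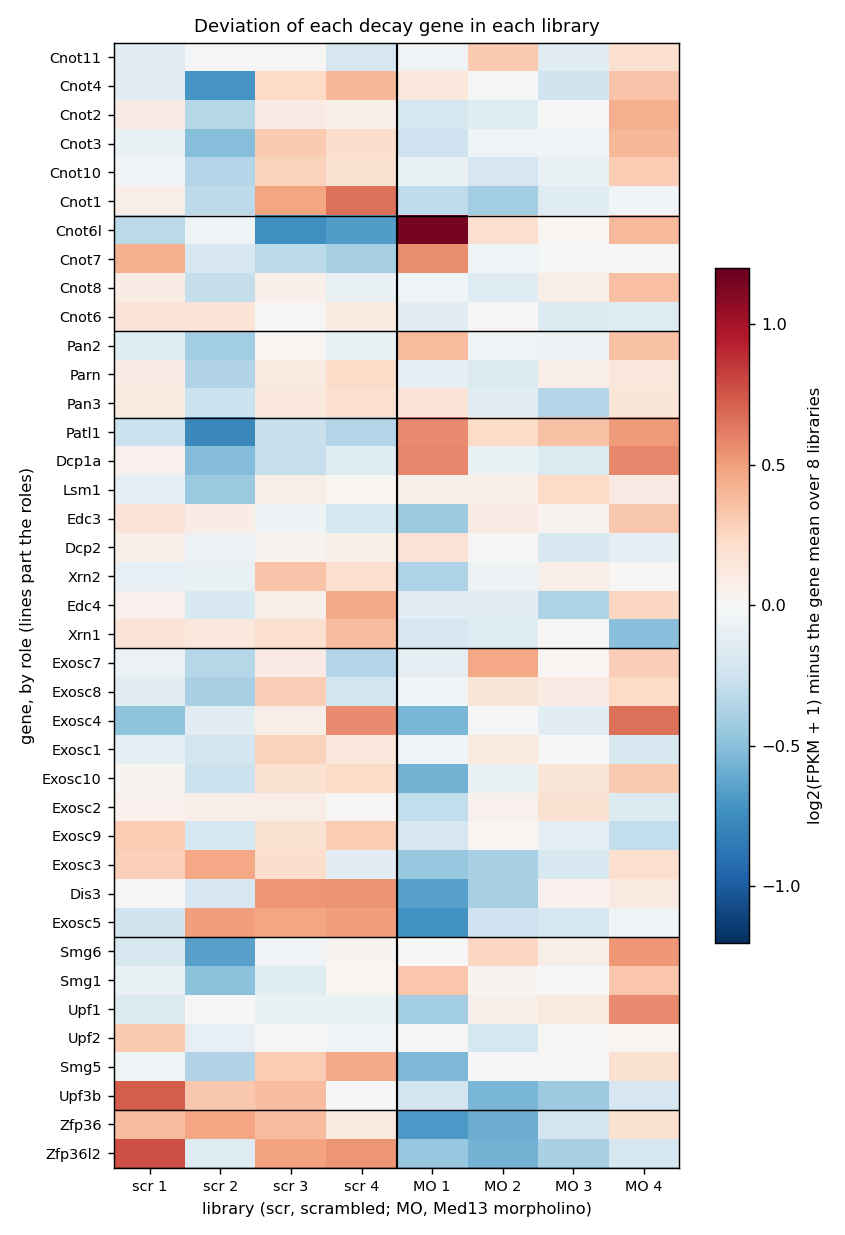
Deviation of log2(FPKM + 1) from the gene's mean over the 8 libraries (colour, red above and blue below) for the 39 tested decay genes (rows, by role) in each library (columns; scr, scrambled; MO, Med13 morpholino). Scrambled library 2 is the lowest scrambled library in 25 rows and Med13 morpholino library 4 the highest of its group in 23.

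A second list held 87 other genes of the decay pathways, such as adaptors, cofactors and RNA-binding recruiters, of which 85 were in the table and 72 were tested. Of these, 17 passed (23.6%, 7 higher and 10 lower, median log2 difference -0.03), against 17.1% of all genes. The groups did not overlap for 19 (26.4%), against 21.6% of all genes. The count was 8 without scrambled library 3 and 9 without Med13 morpholino library 2. In those fits 9.38% and 8.29% of all genes passed. The BTG/TOB adaptors, which bridge RNA-bound proteins to the CNOT7 and CNOT8 nucleases, were tested through 5 genes, of which 2 fell. Tob1 was at 7.55, 9.57, 11.04 and 12.3 FPKM in the scrambled libraries and at 2.64, 2.41, 2.79 and 2.43 FPKM after the Med13 morpholino, 3.94 times lower, and its log2 difference was -1.62 (limma adjusted p = 9.93e-05). Btg3 fell by 1.12 (adjusted p = 0.000825), with 9.32 to 11.3 FPKM in the scrambled and 3.63 to 5.03 FPKM in the other libraries. Btg4, the adaptor of the oocyte-to-embryo transition, was at 32.0, 27.9, 38.3 and 41.2 FPKM and at 55.3, 42.0, 41.2 and 51.2 FPKM, a log2 difference of 0.44 that did not pass (adjusted p = 0.102).

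For decapping, Pnrc1, whose product binds the decapping complex, rose by 1.36 (14.3 to 24.5 FPKM against 40.0 to 68.2 FPKM, adjusted p = 0.00144), while Lsm2 (-0.80), a ring partner of LSM1, and Ddx6 (-0.54), a helicase that binds PATL1, fell. For the exosome, 2 zinc-knuckle cofactor genes rose, Zcchc8 (1.05, adjusted p = 0.00132) of the nuclear exosome targeting complex and Zcchc7 (0.69). The paralogous poly(A) polymerase genes Papd7 (Tent4a, 0.87) rose and Papd5 (Tent4b, -0.58) fell. In the sublist for deadenylation and poly(A) binding, Ccrn4l (Noct, 0.57) and Angel2 (0.62) rose and Toe1 (-0.78) fell. A place in this sublist is not evidence that a gene's product is a deadenylase. Toe1 shares 40.7% of its exonic bases with Tesk2 on the other strand. Among recruiters, Tnrc6c (0.59) rose and Hnrnpd (-0.71), Ago2 (-0.72) and Pum2 (-0.50) fell. Of the exon junction genes, Magohb (-1.02) fell, a near copy of Magoh (0.12), with which reads may be shared.

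Tob1, Btg3, Pnrc1 and Zcchc8 passed in all 16 alternative fits, and Lsm2, Zcchc7, Magohb and Tnrc6c with any 1 library left out. Papd5 and Hnrnpd did not pass without scrambled library 3 or Med13 morpholino library 2 (adjusted p up to 0.0581 and 0.0613), Papd7 without these or Med13 morpholino library 1 (up to 0.0613), and Ago2 without scrambled library 3 or 4 or Med13 morpholino library 1 (up to 0.0608). Pum2 passed in 3 of the 8 fits with 1 library left out (adjusted p up to 0.105), Ddx6, Toe1 and Ccrn4l in 2 of 8 each (up to 0.0797, 0.1002 and 0.0962) and Angel2 in 1 of 8, without scrambled library 1 (up to 0.125). With the most abundant row alone, Ccrn4l (0.28, adjusted p = 0.247), Hnrnpd (-0.36, 0.119) and Angel2 (0.55, 0.0585) did not pass, and Zcchc8 had 0.56 and Magohb -0.65. Toe1 did not pass with protein-coding rows only (-0.53, adjusted p = 0.0528), nor Pum2 with median-ratio scaling (-0.45, 0.0636). Without the filter on low values, 7 of the 17 passed.

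**Figure D5:**
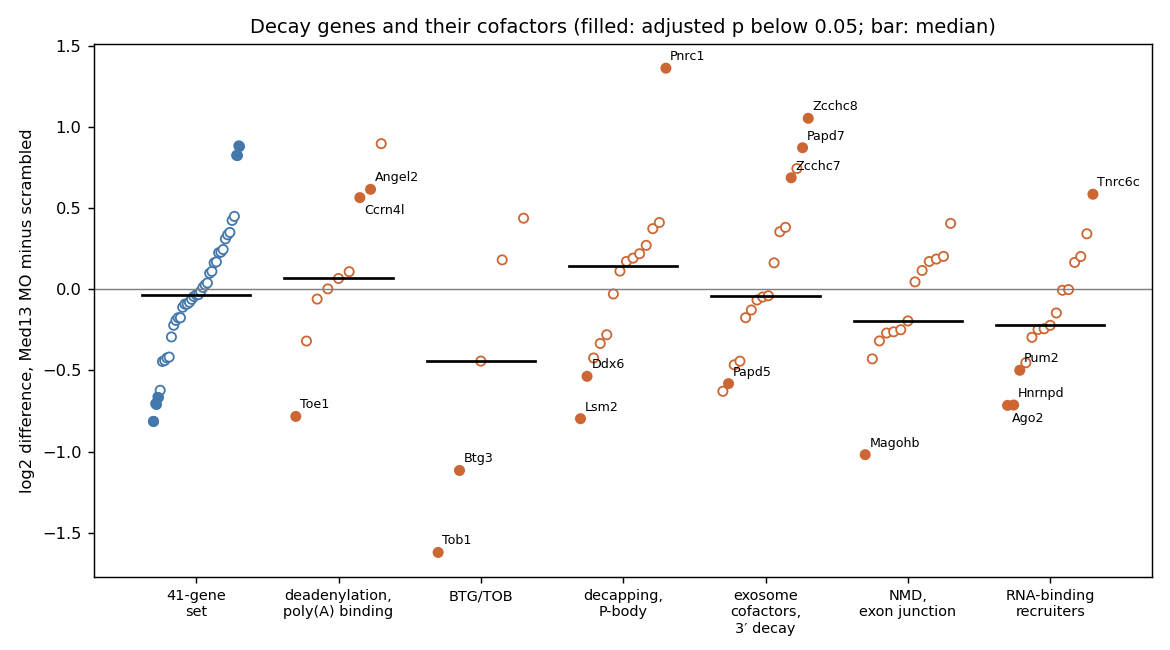
Log2 difference in FPKM + 1 (y axis, Med13 morpholino minus scrambled) of the 39 tested genes of the 41-gene set (blue) and of 72 other decay genes by sublist (orange); filled points passed the threshold and bars are medians. Tob1 (-1.62) and Pnrc1 (1.36) lie outside the range of the 41-gene set, -0.81 to 0.88.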

How the data were processed

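The authors deposited 1 table of FPKM values per Ensembl transcript for 8 libraries of mouse 2-cell embryos. Per the labels' protocols, RNA of 40 embryos per library went through Ovation RNA-Seq amplification before TruSeq libraries were made. Per the submitters' processing notes, BWA and the mm10 build were used; the BWA version, the counting tool and its handling of isoforms and strand are, for this work, not given in the sources used. In 3758 of the 97496 deposited rows, those whose symbol holds a hyphen, text stands in the column of scrambled library 1, so that deposited column is of mixed content (unit: other), and these rows, which hold 0 of the 41 genes, were left out. In the remaining 93738 rows its values are FPKM too.

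FPKM rows were summed per symbol, so a fragment shared by isoforms may count more than once. Genes averaging at least 1 FPKM entered a two-sided limma fit (version 3.58.1, R 4.3.3) of log2(FPKM + 1), with a mean-variance trend, no covariates and Benjamini-Hochberg adjustment (threshold 0.05); the +1 understates changes of low genes. The same fit was run on single transcript rows. Exact permutation tests used scipy 1.17.1. Library totals were recovered from half-fragment steps: 94.3% to 94.5% of values of up to 20 fragments were multiples of 0.5 fragments within 0.005, which gives the fragments behind a row; amplified reads carry no molecular identifiers. Replicates are separate collections, so p-values reflect how much collections vary. The fitting script was tested on simulated data.

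The 41 genes, the second list and the marker lists were chosen with earlier results of these data known. In each role group, the members past the threshold, the most abundant member and that with the smallest adjusted p are given by library, and of the second list the genes past the threshold and Btg4 are named, with Tob1 and Btg4 by library; Cnot6, Xrn1 and Zfp36l1, also given by library, were chosen after their values were seen, as were the motif searches and paralogue pairs. Of the second list 7 genes were matched by an older symbol and 2 were not matched. Alternatives were other scalings, filters, pseudocounts, row choices and library weights, and leaving out each library.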

Additional observations from a re-analysis of the deposited data

Results flagged for a closer look

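In 4 of the 78 groups of 4 libraries (39 genes, 2 groups each; 5.13%), 1 library stood apart from the other 3 by more than Dixon's 95% critical value, which chance alone gives in about 1 in 20 groups. Cnot2 was at 11.04 FPKM in scrambled library 2, against 14.97 to 15.4 FPKM in the other scrambled libraries. Cnot7 was at 47.8 FPKM in Med13 morpholino library 1, against 31.2 to 32.2 FPKM. Exosc5 was at 6.67 FPKM in scrambled library 1, against 11.5 to 11.8 FPKM. Upf2 was at 7.59 FPKM in Med13 morpholino library 2, against 9.02 to 9.13 FPKM.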

How the results depend on the processing

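No paired analysis was made, because the labels name no partner for a library in the other group. The library identifiers alternate between the groups, and pairing by that order was not tested. Without the filter on low values, 1012 genes passed, with 1 member (1 higher, Patl1, and 0 lower), 7 of the second list and 3 transcript rows of members. With a mean FPKM of at least 5, 1137 genes and 5 such rows passed. With library weights, 4336 genes (36.9%) passed, with 10 members (8 lower), 28 of the second list and 23 rows. With only the most abundant transcript row per gene, 1 member passed higher, Patl1, and Cnot6l had an adjusted p of 0.0533. Leaving out 1 library gave 975 to 2406 genes, 1 to 6 members (1 to 2 higher, 0 to 4 lower), 8 to 20 of the second list and 6 to 15 rows. The members' median log2 difference stayed between -0.1242 and -0.0022 with 1 library left out. The cause of these shifts was not tested. Values near 0 changed sign, among them Pan3 (0.0085 with protein-coding rows only, -0.1913 to 0.0123 with 1 library left out, the highest without Med13 morpholino library 3), Exosc10 (-0.2105 to 0.0823, the highest without Med13 morpholino library 1), Cnot7 minus Cnot8 (-0.0441 to 0.2771, the lowest without that library) and Med13 (-0.0011 without scrambled library 3, up to 0.1011 without another). Cnot2, Cnot3, Cnot4, Cnot10, Parn, Edc3, Exosc1, Exosc4 and Upf2 also changed sign with 1 library left out. With 31378977 to 48050262 fragments per library, Zfp36l2 rests on as few as 100 fragments.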
